A study of Mus musculus with 24 samples.

Results

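The 10 Notch pathway genes described here were the receptors Notch1, Notch2 and Notch3, the ligands Dll1, Dll3 and Jag1, the glycosyltransferase gene Mfng and the target genes Hes1, Hes5 and Hey1. They were taken by gene symbol from count tables of 26411 genes, and each of the 10 symbols had 1 row. Messenger RNA was sequenced from neural stem and progenitor cells (NSPCs), the dividing cells from which neurons and glia arise. The cells came from the dorsal telencephalon, from which the cortex forms, of individual mouse embryos at E12.5. The embryos were wildtype (Kat6a+/+), heterozygous (Kat6a+/-) or homozygous mutant (Kat6a-/-) for a germline deletion of exons of Kat6a, which encodes a histone acetyltransferase, on a C57BL/6 background. Proliferating NSPCs were grown for 3 days with the growth factors FGF2 and EGF. Differentiating NSPCs were grown for 3 days in 1% serum on poly-L-ornithine and laminin, without those factors. The 3 genotypes in 2 conditions gave 6 groups of 4 libraries, and each library came from 1 embryo.

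Notch signalling passes between cells in contact. A ligand of the Delta or Jagged family on one cell pulls on a Notch receptor on its neighbour, proteases then free the receptor's intracellular domain, and this domain joins the DNA-binding protein RBPJ to switch on Hes and Hey genes. HES and HEY proteins are repressors that keep neural progenitors from becoming neurons, while cells that become neurons raise Delta ligands under proneural factors. Fringe glycosyltransferases, of which Mfng is one, add sugars to the receptor and so change which ligands it answers.

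Promoter sequences were available from RefSeq (build GRCm38.p6) for 7 of the 10 genes, and Hes1, Hey1 and Mfng were not matched. The 250 bases before the start are printed for Hes5, Dll1 and Dll3, the target gene and the ligands whose RNA was lower in every differentiating Kat6a-/- library. In Hes5 (chr4:154960673-154960922, plus strand) capitals mark TGGGAA, the core of the site bound by RBPJ, read on either strand. In Dll1 (chr17:15376933-15377182, minus strand, the outer of 2 starts) and Dll3 (chr7:28301786-28302035, minus strand) capitals mark CANNTG, the E box, the kind of letters read by proneural factors.
Hes5: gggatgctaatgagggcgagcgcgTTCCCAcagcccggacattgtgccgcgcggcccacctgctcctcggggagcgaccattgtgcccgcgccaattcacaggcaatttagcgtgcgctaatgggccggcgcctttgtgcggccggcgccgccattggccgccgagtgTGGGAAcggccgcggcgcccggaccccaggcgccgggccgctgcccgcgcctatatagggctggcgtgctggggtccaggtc
Dll1: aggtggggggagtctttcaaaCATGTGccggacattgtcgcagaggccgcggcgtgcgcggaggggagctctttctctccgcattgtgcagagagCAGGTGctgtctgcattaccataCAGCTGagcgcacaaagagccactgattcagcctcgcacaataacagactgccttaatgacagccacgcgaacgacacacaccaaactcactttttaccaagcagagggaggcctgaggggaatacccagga
Dll3: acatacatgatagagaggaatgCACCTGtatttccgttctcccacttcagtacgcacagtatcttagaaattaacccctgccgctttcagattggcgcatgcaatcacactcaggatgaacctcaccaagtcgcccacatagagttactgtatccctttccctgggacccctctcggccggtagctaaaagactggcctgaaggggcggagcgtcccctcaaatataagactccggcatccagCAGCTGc
Hes5 held TGGGAA at -226 and -82, counted from -1 at the base before the start, and 1 E box at -194. None of the other 6 matched genes held TGGGAA in this window, against 21.6% of all 32851 windows of the same length. The outer Dll1 start had E boxes at -229, -155 and -132, the inner start 1 at -220, and Dll3 had E boxes at -228 and -7. An E box was present in 66.2% of all windows. The N box CACNAG, a kind of sequence bound by HES proteins and present in 36.7% of windows, was found before the 3 receptor genes and before none of Hes5, Dll1, Dll3 and Jag1. No printed match overlapped another. These matches are descriptions of letters and not of bound sites.

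On the mm39 genome, the build of the counts, the receptors lay at chr2:26347915-26406675 (Notch1), chr3:97920800-98057677 (Notch2) and chr17:32339794-32385893 (Notch3). The ligands lay at chr17:15587276-15597134 (Dll1), chr7:27992978-28001673 (Dll3) and chr2:136923373-136958693 (Jag1), and Mfng at chr15:78640074-78657718. The targets lay at chr16:29882134-29886643 (Hes1), chr4:155045373-155046828 (Hes5) and chr3:8726956-8732385 (Hey1). All 10 are protein-coding and all passed the filter on low counts in both conditions.

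Library totals ranged from 7826660 to 40838203 counts, with the deepest library in the proliferating Kat6a+/+ group and 7826660 to 9775640 counts in the proliferating Kat6a-/- group. Kat6a itself was at 373 to 409 CPM (counts scaled to a common library size, with TMM factors) in proliferating Kat6a+/+ and 334 to 389 CPM in proliferating Kat6a-/- NSPCs, and at 239 to 292 CPM against 160 to 253 CPM in differentiating NSPCs. Counts of the whole gene include exons that the deletion leaves, so this level is a weak check of the labels. In each condition 3 of 4 Kat6a+/+ libraries, and 1 of 4 in each mutant group, held over 100 CPM of Y-linked reads, so sex and genotype were partly confounded, and the part of sex in the results was not tested. The libraries came from 5 litters in proliferating and 7 litters in differentiating NSPCs, and only litters 4633 and 4746 held both Kat6a+/+ and Kat6a-/- embryos in each condition. In each condition, litter 4633 gave 2 of the 4 Kat6a-/- libraries and 1 Kat6a+/+ library, and litter 4746 gave 1 of each. Differences within litters are therefore descriptions from these few libraries. The main fit of differentiating libraries had no litter term. Neural stem cell and radial glia markers (Pax6, Sox2, Nes, Vim, Slc1a3, Fabp7, Prom1) summed to 6877 to 13660 CPM over all 24 libraries.

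In wildtype cells, receptor and target RNA differed widely per unit of length. Levels per length are given as RPKM (CPM divided by the counted gene length in kilobases), as mean ± SD over 4 libraries. In proliferating Kat6a+/+ NSPCs, Notch1 was at 37.9 ± 2.05 RPKM and Hes1 at 34.5 ± 8.31 RPKM, a difference within their spread. Dll1 followed at 20.7 ± 1.98 RPKM, then Notch3 at 16.4 ± 1.83, Jag1 at 12.7 ± 1.35 and Hey1 at 10.5 ± 1.69 RPKM. Notch2 at 7.82 ± 0.789 RPKM and Hes5 at 7.73 ± 2.16 RPKM were alike within their spread, and Dll3 (2.63 ± 0.714) and Mfng (1.27 ± 0.531) were the lowest of the 10. In differentiating Kat6a+/+ NSPCs the order changed, with Notch1 at 62.8 ± 3.97 RPKM and Hey1 at 51.9 ± 1.29 RPKM at the top. Notch3 (29.1 ± 2.99 RPKM), Hes5 (26.5 ± 13.9) and Notch2 (23.9 ± 2.15) formed a middle group within the spread of Hes5. Hes1 (14.8 ± 2.06), Dll1 (13.7 ± 4.83) and Dll3 (11.8 ± 7.64 RPKM) were also alike within their spread, and Mfng (1.96 ± 1.05) and Jag1 (1.18 ± 0.267) were the lowest.

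Of the 10 genes, 9 differed between conditions in Kat6a+/+ NSPCs in a limma-voom fit of all 24 libraries at a false discovery rate (FDR) under 0.05, 6 higher and 3 lower in differentiating cells. Among all genes tested, 72.9% were called, 36.7% higher and 36.2% lower. All 3 receptors rose, Notch2 the most, with a log2 fold change of 1.60 (SE 0.12, FDR 1.56e-10), Notch3 with 0.83 (SE 0.19, FDR 0.000517) and Notch1 with 0.73 (SE 0.15, FDR 0.000128). Among targets, Hey1 rose by 2.32 on the log2 scale (SE 0.25, FDR 5.5e-08) and Hes5 by 1.79 (SE 0.46, FDR 0.0015), while Hes1 fell by 1.24 (SE 0.30, FDR 0.000902). The ligands split, since Dll3 rose by 1.98 on the log2 scale (SE 0.55, FDR 0.00297) and Jag1 fell by 3.50 (SE 0.61, FDR 2.82e-05). Dll1 fell by 0.67 on the log2 scale (SE 0.27, FDR 0.0285), a call that was lost in 3 of 10 other settings and in 5 of 24 fits without 1 library. These were the fits without differentiating Kat6a+/+ replicates 2 (FDR 0.187) and 3 (0.0519) and without proliferating Kat6a+/+ replicates 1 (0.0692), 2 (0.0599) and 3 (0.0753). Mfng did not pass the test (log2 fold change 0.66, 95% interval -0.42 to 1.74, FDR 0.260). The RNA extraction kit differed between proliferating and differentiating cells, so kit and condition cannot be told apart.

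Proliferating Kat6a-/- NSPCs had more RNA of the receptors Notch2 and Notch3 and the ligands Dll3 and Jag1 than Kat6a+/+ NSPCs, and less of the ligand Dll1 and the target Hey1. Of the 10 genes, 6 were called in Kat6a-/- vs. Kat6a+/+ NSPCs by limma-voom with litter as a random block, 4 higher and 2 lower. Among all 12276 genes tested, 30.0% were called, 16.2% higher and 13.8% lower. The calls of Notch3 and Hey1 were each lost in 6 of 12 fits without 1 library. The median log2 fold change of the 10 genes was 0.16, beside -0.0045 over all genes. In whole cultures, fewer cells of a type and less RNA per cell cannot be told apart, here and in all comparisons that follow.

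**Figure D1:**
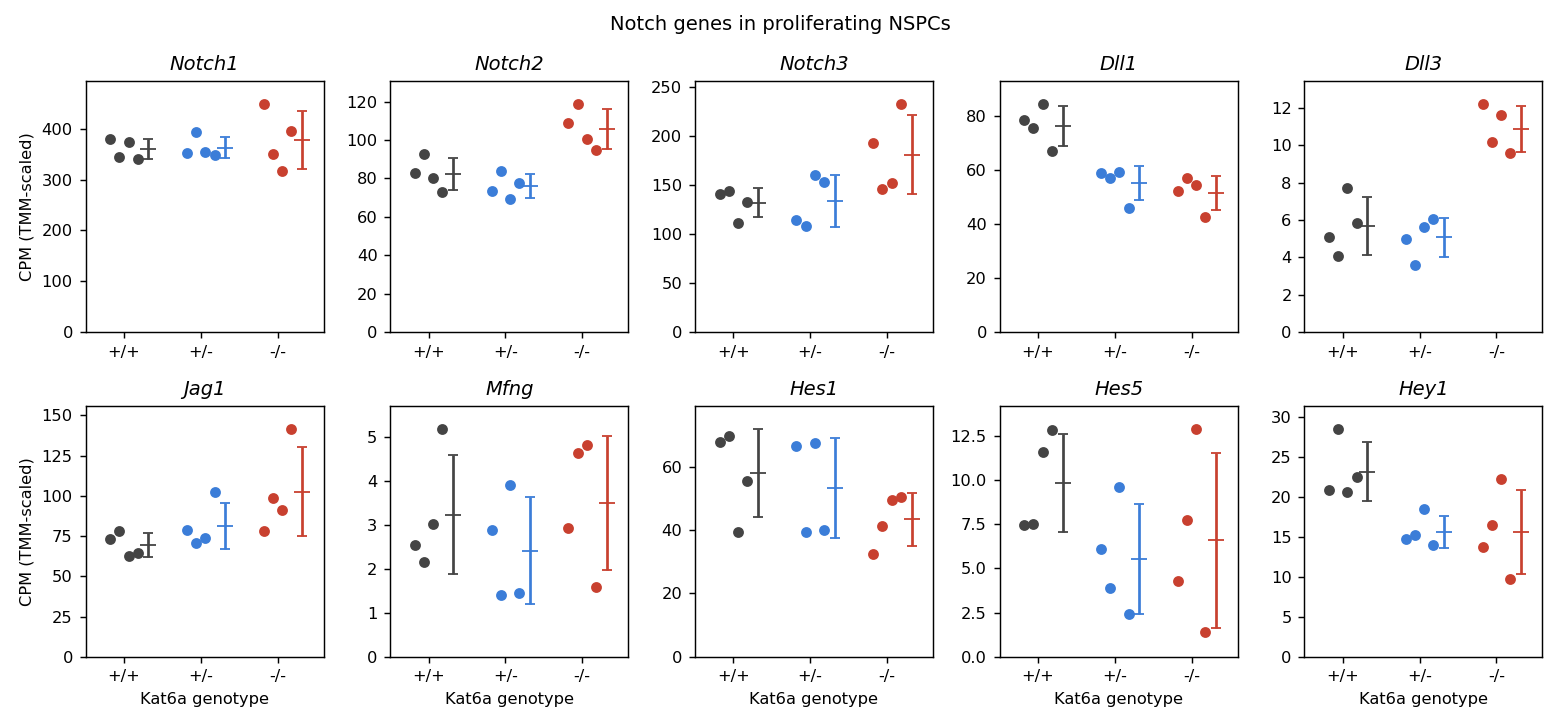
CPM of the 10 genes in each proliferating library (points, 4 per genotype) with the mean and SD (bar) beside them; the vertical axes start at 0 and differ between genes. The 4 Kat6a-/- libraries sit above all Kat6a+/+ libraries for Notch2, Notch3 and Dll3 and below them for Dll1.

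Dll1 encodes a Delta ligand made by cells of the embryonic cortex. It was at 78.5, 75.4, 84.5 and 67.0 CPM in the proliferating Kat6a+/+ libraries and at 52.1, 57.0, 54.3 and 42.8 CPM in the Kat6a-/- libraries. Every Kat6a-/- library was below every Kat6a+/+ library, as for 17.6% of all genes. Dll1 fell by 0.53 on the log2 scale (SE 0.09, FDR 0.000884), and within litters the difference was -0.63 in litter 4633 and -0.30 in litter 4746. The call held in all 12 fits without 1 library and in all 8 other settings. Dll3, which encodes a Delta protein that stays largely inside the cell and inhibits Notch signalling in the same cell, moved the other way. It was at 5.11, 4.09, 7.75 and 5.84 CPM in Kat6a+/+ and at 12.2, 10.2, 11.6 and 9.57 CPM in Kat6a-/- NSPCs. The groups did not overlap, with all Kat6a-/- libraries above, as for 13.7% of all genes. The log2 fold change of Dll3 was 1.03 (SE 0.18, FDR 0.00133), and 0.52 and 0.98 within litters 4633 and 4746. Jag1, a ligand of the Jagged family, was at 73.2, 78.2, 62.5 and 64.4 CPM in Kat6a+/+ and at 78.1, 99.0, 91.1 and 142 CPM in Kat6a-/- NSPCs, where 3 of 4 libraries exceeded the Kat6a+/+ range. Its log2 fold change was 0.55 (SE 0.14, FDR 0.0092), and 0.49 and 0.50 within litters 4633 and 4746.

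Of the receptors, Notch2 was at 83.0, 92.8, 80.4 and 72.7 CPM in proliferating Kat6a+/+ and at 109, 119, 100.3 and 94.7 CPM in Kat6a-/- NSPCs, without overlap. Notch2 rose by 0.39 on the log2 scale (SE 0.09, FDR 0.00487), and 0.50 and 0.46 within litters 4633 and 4746. Notch3 did not overlap either, at 111 to 144 CPM in Kat6a+/+ and 146 to 233 CPM in Kat6a-/- NSPCs, with a log2 fold change of 0.45 (SE 0.16, FDR 0.0469). The Notch3 call was lost in 4 of 8 other settings and in 6 of 12 fits without 1 library, with FDR up to 0.185 and 0.160. The libraries concerned were Kat6a+/+ replicates 1 (FDR 0.0741), 2 (0.0673), 3 (0.160) and 4 (0.0761) and Kat6a-/- replicates 1 (0.115) and 4 (0.146). Notch1, the receptor with the most RNA, was at 341 to 379 CPM in Kat6a+/+ and 317 to 449 CPM in Kat6a-/- NSPCs and did not pass the test (log2 fold change 0.07, 95% interval -0.12 to 0.27).

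Of the targets, Hey1 was at 20.9, 28.6, 20.6 and 22.6 CPM in proliferating Kat6a+/+ and at 13.8, 16.5, 22.3 and 9.77 CPM in Kat6a-/- NSPCs, so that Kat6a-/- replicate 3 lay within the Kat6a+/+ range. Hey1 fell by 0.55 on the log2 scale (SE 0.18, FDR 0.0386). The difference was -0.45 in litter 4633 and -0.02 in litter 4746. The Hey1 call was lost with litter as a fixed term (FDR 0.144), with edgeR (0.0614) and in 6 of 12 fits without 1 library. These were the fits without Kat6a-/- replicates 1 (FDR 0.0922) and 4 (0.158), Kat6a+/+ replicates 1 (0.0540), 2 (0.0732) and 4 (0.0552), and Kat6a+/- replicate 1 (0.0548). Hes5 was at 7.48 to 12.8 CPM in Kat6a+/+ and 1.40 to 12.9 CPM in Kat6a-/- NSPCs, with a log2 fold change of -0.80 (95% interval -1.79 to 0.19, FDR 0.199). Hes1 (-0.27, 95% interval -0.75 to 0.20) and Mfng (0.24, 95% interval -0.51 to 0.99) did not pass the test.

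In differentiating NSPCs, RNA of the ligands Dll1 and Dll3, the glycosyltransferase Mfng, the target Hes5 and the receptor Notch1 was lower in every Kat6a-/- library than in any Kat6a+/+ library. Of all genes tested, 14.7% lay below in this way. Another 12.2% lay above, as none of the 10 genes did. Of the 10 genes, 8 were called in Kat6a-/- vs. Kat6a+/+ NSPCs by limma-trend with library quality weights, 3 higher and 5 lower. Among all 13339 genes tested 54.4% were called, 26.7% higher and 27.7% lower. The median log2 fold change of the 10 genes was -0.64, beside -0.016 over all genes. The 5 lower calls were made in all 9 other settings and 4 of them in every fit without 1 library, while the 3 higher calls (Jag1, Notch3, Hes1) were lost in many of them. The quality weights gave Kat6a-/- replicate 3 a share of 69.0% in its group mean and replicate 2 a share of 4.22%. Without Kat6a-/- replicate 1 the count was 5, without replicate 3 it was 4, and without quality weights it was 5, all of them lower. The shares of all genes called in these 3 fits were 9.01%, 6.99% and 23.2%. The weights converged in the fit of all 12 libraries, but their estimation stopped before its tolerance was reached in the fits without any 1 Kat6a-/- replicate, with a replicate block and with litter as a fixed term.

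**Figure D2:**
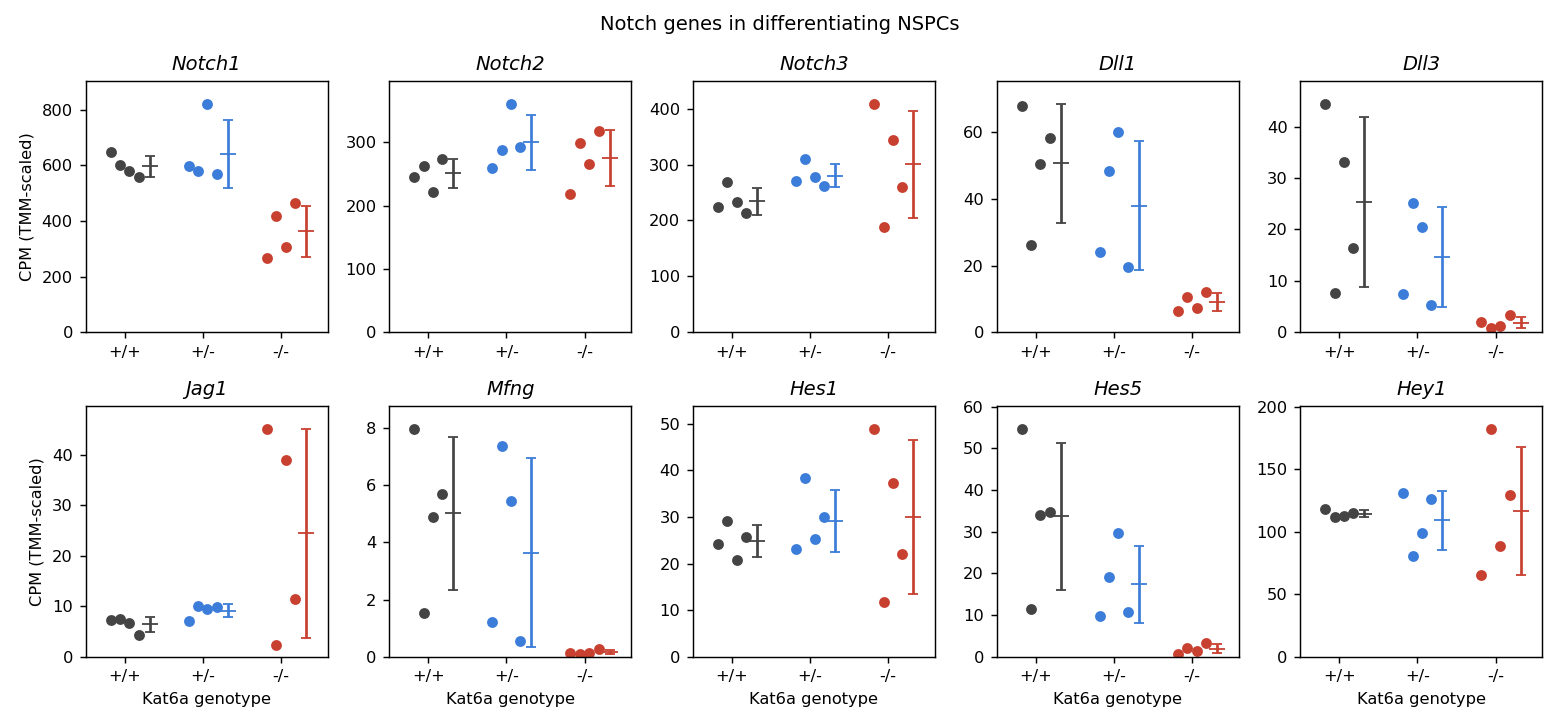
CPM of the 10 genes in each differentiating library (points, 4 per genotype) with the mean and SD (bar) beside them; the vertical axes start at 0 and differ between genes. Notch1, Dll1, Dll3, Mfng and Hes5 lie lower in all 4 Kat6a-/- libraries, and the Kat6a-/- libraries of Jag1, Notch3, Hes1 and Hey1 spread to both sides of the Kat6a+/+ libraries.

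Hes5, a HES repressor that is a standard readout of Notch signalling in neural progenitors, was at 54.8, 11.6, 33.9 and 34.7 CPM in differentiating Kat6a+/+ and at 0.688, 2.18, 1.51 and 3.29 CPM in Kat6a-/- NSPCs. The groups did not overlap, although Kat6a+/+ replicate 2 lay well under the other 3. All Kat6a-/- libraries were below for 14.7% of all genes. The log2 fold change was -4.58 (SE 0.42, FDR 6.59e-06), and -4.63 and -4.41 within litters 4633 and 4746. Over the alternatives it ranged from -4.84 to -4.05 and the highest FDR was 0.0151. The counts behind the Kat6a-/- values were 10, 41, 25 and 51 reads. The printed promoter stretch of Hes5 held the pair of RBPJ core matches, and any part of these in the lower RNA was not tested.

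Dll1 was at 68.0, 26.3, 50.4 and 58.1 CPM in differentiating Kat6a+/+ and at 6.33, 10.6, 7.35 and 11.95 CPM in Kat6a-/- NSPCs. Its log2 fold change was -2.82 (SE 0.29, FDR 1.41e-05), and -2.60 and -2.96 within litters 4633 and 4746. Dll3 was at 44.5, 7.65, 33.1 and 16.4 CPM in Kat6a+/+ and at 2.00, 0.796, 1.21 and 3.29 CPM in Kat6a-/- NSPCs. Neither ligand's groups overlapped, and Kat6a+/+ replicate 2 was again the lowest of its group for both. The log2 fold change of Dll3 was -4.27 (SE 0.49, FDR 2.93e-05), and -4.57 and -3.63 within litters 4633 and 4746. Mfng was at 7.98, 1.53, 4.88 and 5.70 CPM in Kat6a+/+ NSPCs and had 2, 2, 2 and 4 reads in the Kat6a-/- libraries. From summed reads, 10 against 410, its rate in Kat6a-/- NSPCs was 0.0302 of that in Kat6a+/+ NSPCs (exact Poisson 95% interval 0.0144 to 0.0561, counting error only). The fitted log2 fold change of Mfng was -4.51 (SE 0.54, FDR 3.56e-05), a value that depends on the prior count at so few reads. Dll1, Dll3 and Mfng kept their calls in all 12 fits without 1 library and all 9 other settings, with FDR of at most 0.0327, 0.0337 and 0.0422.

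Of the receptors, Notch1 was at 647, 600.4, 579 and 559 CPM in differentiating Kat6a+/+ and at 266, 416, 305 and 463 CPM in Kat6a-/- NSPCs, without overlap. Its log2 fold change was -0.94 (SE 0.12, FDR 4.16e-05), and -0.80 and -0.87 within litters 4633 and 4746. The call was lost without Kat6a-/- replicate 3, where the fold change was -0.72 (FDR 0.0684). Notch3 was at 224, 269, 233 and 213 CPM in Kat6a+/+ and at 409, 189, 344 and 260 CPM in Kat6a-/- NSPCs, where replicate 2 was below and replicates 1 and 3 above the Kat6a+/+ range. Its log2 fold change of 0.55 (SE 0.11, FDR 0.000871) fell to 0.14 without Kat6a-/- replicate 1 (FDR 0.692) and to 0.13 without replicate 3 (FDR 0.769), and was 0.30 without quality weights (FDR 0.284). Notch2 did not pass the test (log2 fold change 0.12, 95% interval -0.09 to 0.34).

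Jag1 was at 7.32, 7.48, 6.71 and 4.32 CPM in differentiating Kat6a+/+ and at 45.0, 2.39, 39.0 and 11.5 CPM in Kat6a-/- NSPCs. Of the Kat6a-/- libraries, 3 lay above the Kat6a+/+ range and replicate 2 below it. The fitted log2 fold change of 2.23 (SE 0.38, FDR 0.000389) was 0.49 without Kat6a-/- replicate 1 (FDR 0.718), 0.14 without replicate 3 (FDR 0.935) and 1.23 without quality weights (FDR 0.240). Within litters it was 0.64 (4633) and 3.14 (4746), and the value in litter 4633 averages Kat6a-/- libraries at 45.0 and 2.39 CPM. The 3 Kat6a-/- libraries above the Kat6a+/+ range of Jag1 also stood apart in the summed level of 8 mesenchymal and meningeal markers. This sum was 277, 43.4, 260.0 and 180 CPM in Kat6a-/- replicates 1 to 4 and 32.8 to 66.3 CPM in Kat6a+/+ NSPCs. Astrocyte markers split these libraries differently, at 800.3, 5193, 1023 and 2339 CPM in Kat6a-/- replicates 1 to 4 and 996 to 1633 CPM in Kat6a+/+ NSPCs. Replicate 4 was above the Kat6a+/+ range in both sums. Replicates 2 and 4, the higher pair of the astrocyte sum, were also the lower pair of Jag1, Notch3 and Hes1 and the higher pair of Hey1. They were the higher pair of Notch1, Notch2, Dll1 and Hes5 as well, but not of Dll3 or Mfng. Notch1, Dll1 and Hes5 were still below all Kat6a+/+ libraries in every Kat6a-/- library. The part of such cells in these values was not tested, and the markers Col3a1, Lum and Dcn were under 1 CPM in every differentiating library.

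Of the other targets, Hes1 was at 24.1, 29.1, 20.7 and 25.6 CPM in differentiating Kat6a+/+ and at 49.0, 11.8, 37.4 and 22.0 CPM in Kat6a-/- NSPCs, on both sides of the Kat6a+/+ range. Its log2 fold change of 0.59 (SE 0.20, FDR 0.0257) became -0.19 without Kat6a-/- replicate 1 and -0.24 without replicate 3, so its direction rests on these libraries. Without Kat6a+/+ replicates 1 or 3 its FDR was 0.0867 and 0.123. Hey1 was at 112 to 118 CPM in Kat6a+/+ and at 65.9, 183, 88.7 and 129 CPM in Kat6a-/- NSPCs, and did not pass the test (log2 fold change -0.35, 95% interval -0.67 to -0.02, FDR 0.0658). Without Kat6a-/- replicate 2 or 4, or Kat6a+/- replicate 2, Hey1 was called lower (FDR 0.00204, 0.0124 and 0.0462), and without Kat6a-/- replicate 1 or 3 its estimate was above 0, at 0.17 and 0.16. Of the 3 targets, only Hes5 was lower in every differentiating Kat6a-/- library than in any Kat6a+/+ library.

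**Figure D3:**
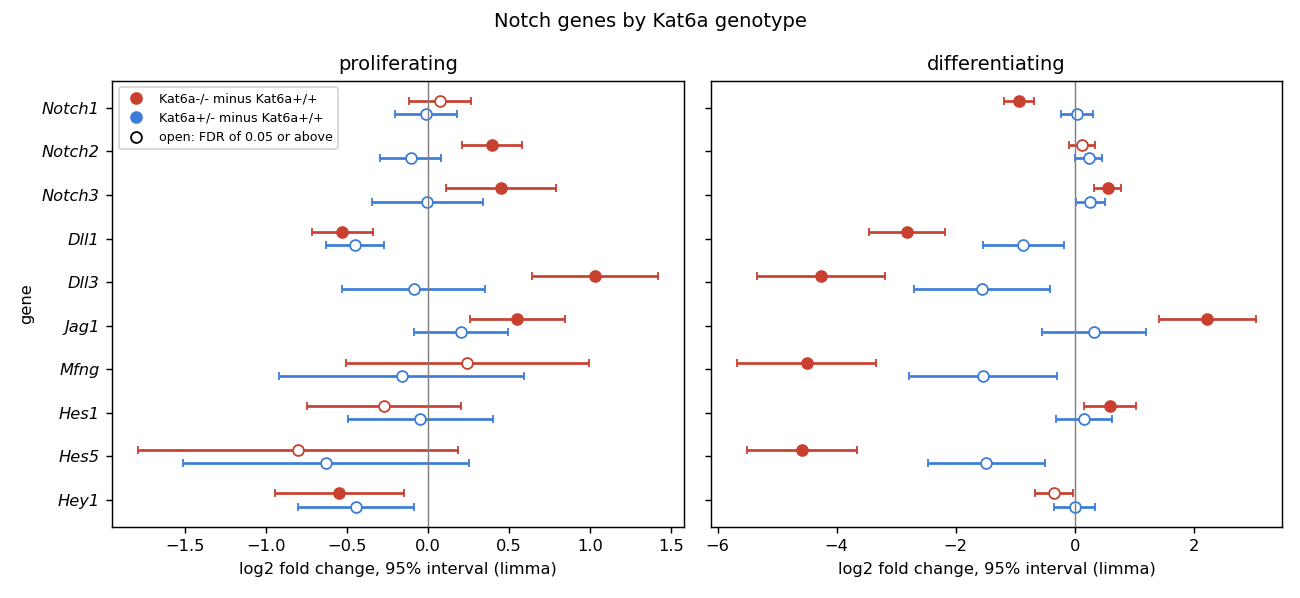
Fitted log2 fold change against Kat6a+/+ NSPCs with its 95% interval for each of the 10 genes, in proliferating (left) and differentiating (right) NSPCs, Kat6a-/- in red and Kat6a+/- in blue; the horizontal axes differ. Filled points have an FDR under 0.05, as 6 of 10 and 8 of 10 Kat6a-/- values do and no Kat6a+/- value does.

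In Kat6a+/- NSPCs no Notch gene was called against Kat6a+/+ by limma in either condition, and 0% of all genes were. At an unadjusted limma p under 0.05, 912 of 12276 genes tested passed in proliferating NSPCs, among them Dll1 and Hey1. In differentiating NSPCs 1926 of 13339 passed, among them Notch2, Notch3, Dll1, Dll3, Mfng and Hes5. In proliferating cells none of the 10 genes was above all 4 Kat6a+/+ libraries, as 1.89% of all genes were. Dll1 was at 59.0, 57.2, 59.2 and 46.0 CPM in proliferating Kat6a+/- NSPCs, below all 4 Kat6a+/+ libraries, as for 2.64% of all genes. Its log2 fold change of -0.45 (SE 0.08, limma FDR 0.146) was called by DESeq2 (FDR 0.0257), which called 0.228% of all genes in this comparison. It did not differ detectably from that of Kat6a-/- NSPCs, since Kat6a-/- vs. Kat6a+/- gave -0.08 with a 95% interval of -0.27 to 0.11. Hey1 in proliferating cells was at 14.8, 15.2, 18.5 and 14.0 CPM in Kat6a+/- NSPCs, also below all Kat6a+/+ libraries (log2 fold change -0.44, SE 0.17, FDR 0.553). In contrast, Dll3 and Notch2 in proliferating Kat6a+/- NSPCs lay near Kat6a+/+ levels, at 3.61 to 6.05 and 69.1 to 83.9 CPM. Both were higher in Kat6a-/- than in Kat6a+/- NSPCs, by 1.12 on the log2 scale for Dll3 (SE 0.20, FDR 0.00384) and by 0.50 for Notch2 (SE 0.08, FDR 0.00261), the only 2 of the 10 genes called there beside 14.8% of all genes (8.47% higher and 6.30% lower).

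In differentiating Kat6a+/- NSPCs, the 4 genes with the largest falls in Kat6a-/- NSPCs had estimates on the same side of 0, but none of the 10 genes was above (1.42% of all genes) or below (1.36%) all Kat6a+/+ libraries. The log2 fold change was -0.86 for Dll1 (SE 0.31, FDR 0.267), -1.56 for Dll3 (SE 0.53, FDR 0.248), -1.54 for Mfng (SE 0.57, FDR 0.275) and -1.48 for Hes5 (SE 0.45, FDR 0.227). The libraries fell into a high and a low pair rather than an even shift. Dll3 was at 7.41, 25.1, 20.5 and 5.31 CPM, Mfng at 1.21, 7.36, 5.45 and 0.538 CPM and Hes5 at 9.77, 19.2, 29.7 and 10.8 CPM in Kat6a+/- replicates 1 to 4, so that replicates 1 and 4 were the lower pair for each. Dll1 showed the same pair, at 23.99 and 19.4 CPM against 48.5 and 60.1 CPM. The 6 intermediate progenitor markers were also lower in replicates 1 and 4, which summed to 187 and 188 CPM, than in replicates 2 and 3, at 358 and 368 CPM. So were the interneuron lineage markers, at 137 and 143 against 188 and 244 CPM, and the cycling markers, at 719.5 and 575 against 940.0 and 963 CPM. The part of such cells was not tested. The quality weights gave Kat6a+/- replicate 1, one of the lower pair, 50.2% of its group's weight. Among Kat6a+/+ libraries, replicate 2 was also low, at 26.3 (Dll1), 7.65 (Dll3), 1.53 (Mfng) and 11.6 CPM (Hes5). It held 9.39% of the Kat6a+/+ weight, while replicate 1, the highest Kat6a+/+ library for these 4 genes, held 42.0%. Without weights the log2 fold changes were -0.49 for Dll1, -0.79 for Dll3, -0.86 for Mfng and -0.91 for Hes5 (FDR 0.999 for each). Unweighted mean CPM of Mfng was 3.64 ± 3.30 in Kat6a+/- and 5.02 ± 2.67 in Kat6a+/+ NSPCs. The estimates depended on single libraries in both directions. Without Kat6a+/- replicate 1 they were -0.27 (Dll1), -0.81 (Dll3), -0.49 (Mfng) and -0.80 (Hes5), and without replicate 4 they were -0.42, -0.98, -0.66 and -1.07, with no call. Without replicate 3, Dll1 (-1.14, FDR 0.0442) and Hes5 (-1.83, FDR 0.0433) were called. Without Kat6a+/+ replicate 1, Dll3 was at -0.97 (FDR 0.763). Both comparisons use the same Kat6a+/+ libraries. Kat6a-/- vs. Kat6a+/- differentiating NSPCs gave 6 calls beside 37.5% of all genes (19.1% higher and 18.5% lower), Notch1, Dll1, Dll3, Mfng and Hes5 lower and Jag1 higher. The log2 fold change was -3.10 for Hes5 (SE 0.50, FDR 0.000897) and -1.96 for Dll1 (SE 0.34, FDR 0.00145). None of the 6 was called without Kat6a-/- replicate 1 or without replicate 3, where 2.57% and 1.81% of all genes were.

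The difference between Kat6a-/- and Kat6a+/+ NSPCs itself differed between conditions for 4 of the 10 genes, all more negative in differentiating cells, in a limma-voom fit of all 24 libraries, beside 13.9% of all genes (7.58% in that direction and 6.36% in the other). The interaction estimate was -4.84 for Mfng (SE 1.26, FDR 0.0141), -4.77 for Dll3 (SE 1.11, FDR 0.00681), -1.85 for Dll1 (SE 0.49, FDR 0.0148) and -0.82 for Notch1 (SE 0.20, FDR 0.00996). Dll3 stood on opposite sides of Kat6a+/+ in the 2 conditions, with all Kat6a-/- libraries above in proliferating and all below in differentiating NSPCs. In Kat6a+/+ NSPCs Dll3 went from 5.69 ± 1.54 to 25.4 ± 16.5 CPM between conditions (mean ± SD, n = 4), and in Kat6a-/- NSPCs from 10.9 ± 1.23 to 1.82 ± 1.1 CPM. Hes5 went from 9.85 ± 2.76 to 33.7 ± 17.7 CPM in Kat6a+/+ and from 6.59 ± 4.95 to 1.92 ± 1.1 CPM in Kat6a-/- NSPCs. Its interaction estimate of -3.29 (SE 1.17, FDR 0.0636) missed the threshold and passed it in 6 of 10 other settings and in 3 of 24 fits without 1 library, those without differentiating Kat6a+/+ replicate 2 (FDR 0.00806), differentiating Kat6a-/- replicate 2 (0.0483) or proliferating Kat6a-/- replicate 4 (0.0296). The estimates of the other 5 genes were -0.23 (Notch2), -0.13 (Notch3), 0.64 (Jag1), 0.49 (Hes1) and 0.56 (Hey1), with FDR of at least 0.375. The Jag1 estimate was 0.05 without differentiating Kat6a-/- replicate 1 (FDR 0.973) and 0.07 without replicate 3 (FDR 0.964), while it passed without replicate 2 (1.56, FDR 0.0235) and with quality weights (1.59, FDR 0.0131), where 35.3% of all genes were called. It was 0.39 without differentiating Kat6a+/+ replicate 4 (FDR 0.806).

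**Figure D4:**
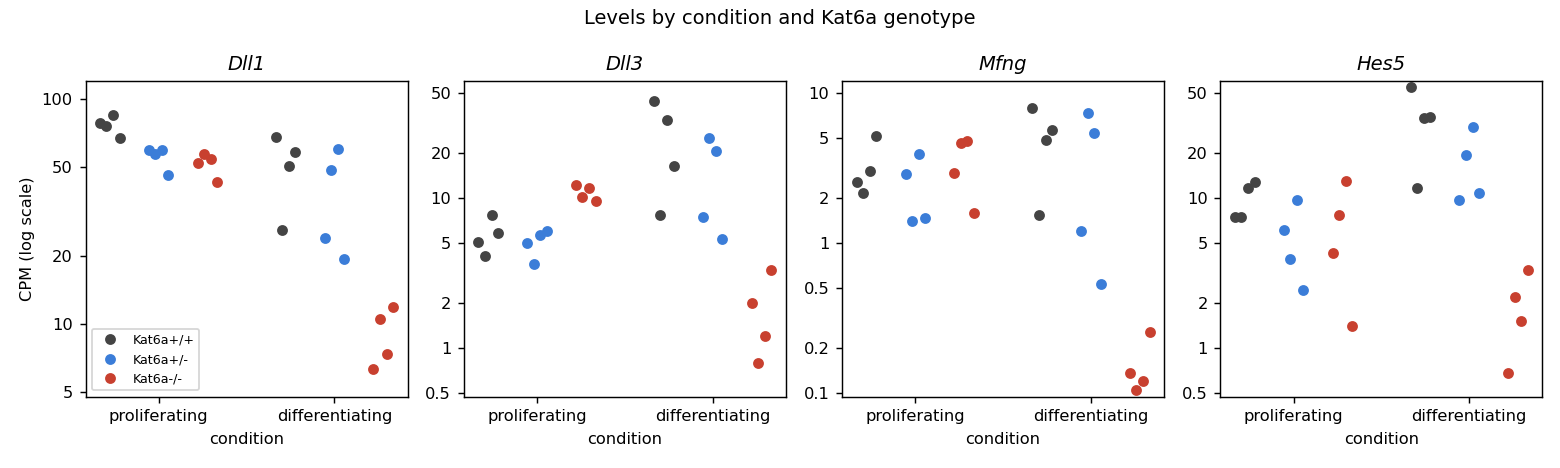
CPM on a log axis of Dll1, Dll3, Mfng and Hes5 in every library, by condition and Kat6a genotype (4 points each). In proliferating NSPCs the genotypes overlap for Mfng and Hes5, Dll3 is higher and Dll1 lower in Kat6a-/- libraries, and in differentiating NSPCs all 4 genes are lowest in the Kat6a-/- libraries.

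Among 51 other genes of the pathway, the shares called were near those of all genes. In proliferating Kat6a-/- vs. Kat6a+/+ NSPCs, 43 were tested, of which 10 rose, 5 fell and 28 did not pass (34.9% called, beside 30.0%), and the median log2 fold change was 0.08. The largest rises were of Dtx1, an E3 ligase that binds the Notch intracellular domain (1.46, SE 0.19, FDR 0.00017), Neurl1b, a ligase that promotes ligand uptake (1.31, SE 0.17, FDR 0.000162), Dner, a Delta-like transmembrane protein of neurons (1.08, SE 0.19, FDR 0.00143), and Aph1b, a gamma-secretase subunit (0.58, SE 0.10, FDR 0.00149). The largest falls were of Neurl1a, the relative of Neurl1b (-1.02, SE 0.27, FDR 0.0133), Numbl, related to the Notch inhibitor Numb (-0.64, SE 0.22, FDR 0.0457), the coactivator Maml1 (-0.33, SE 0.10, FDR 0.0283) and Rbpj itself (-0.31, SE 0.09, FDR 0.0243).

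In differentiating NSPCs 47 of the 51 genes were tested, of which 10 rose, 15 fell and 22 did not pass (53.2% called, beside 54.4%), and the median log2 fold change was -0.033. The largest rises were of the ligand gene Jag2 (2.48, SE 0.39, FDR 0.000206), Neurl1a (1.54, SE 0.45, FDR 0.0115), Dlk2, a non-canonical ligand (0.98, SE 0.23, FDR 0.00335), and Furin, the protease that cleaves the receptor on its way to the surface (0.83, SE 0.10, FDR 2.74e-05). The largest falls were of Nrarp, a Notch target that feeds back on the intracellular domain (-3.18, SE 0.30, FDR 7.06e-06), Neurl1b (-1.37, SE 0.20, FDR 0.000141), the corepressor Tle1 (-1.34, SE 0.16, FDR 4e-05) and Hes6, a HES family gene of differentiating progenitors (-1.29, SE 0.17, FDR 6.18e-05). In these main fits the estimates of Neurl1a and Neurl1b had opposite signs in each condition, and both signs differed between conditions. The differentiating fit gave Kat6a-/- replicate 3 a share of 69.0% in its group mean. How these genes fare in the other settings or in the interaction is not given here. By role, 3 of 4 tested genes of the other targets and relatives fell and none rose, 4 of 10 proteases rose and 1 fell, and 4 of 14 inhibitors and corepressors fell and 1 rose. Among all genes tested in differentiating NSPCs, 26.7% were called higher and 27.7% lower. Of the inhibitors and corepressors 35.7% were called, beside 54.4% of all genes.

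Across the 24 libraries, the gene whose log2 CPM was most like that of Mfng was Nrarp (Pearson's r 0.94), followed by Dll1 (r 0.90). Mfng was also among the 3 genes most like Dll3 (r 0.85), behind Gjd2 (r 0.86). The gene most like Dll1 was Tgif2 (r 0.96), followed by Myt1 (r 0.95) and Elavl2 (r 0.95), and most like Hes5 was Zfp961 (r 0.92). Jag1 and Hey1 ran opposite to each other (r -0.93), with Jag1 high in proliferating and Hey1 in differentiating libraries. These correlations are descriptions over 24 libraries that share genotype and condition. After the 6 group means were removed, the genes most like Mfng were Fkbp4 (r 0.90), Tbc1d16 (r 0.87) and Meis1 (r 0.86). The r of Mfng was lower with Dll1 (0.82), Dll3 (0.78) and Hes5 (0.76). Jag1 was then most like Man2a1 (r 0.96), Ncstn (r 0.95) and Traf5 (r 0.94), with lower r for Hes1 (0.78) and Notch3 (0.77). The pair of Notch3 and Hey1, alike over all libraries (r 0.69), was opposed within groups (r -0.70). The genes most like Dll3 within groups were Helt (r 0.85), Tada1 (r 0.84) and then Insm1 (r 0.80), the last a gene of neuronal progenitors.

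**Figure D5:**
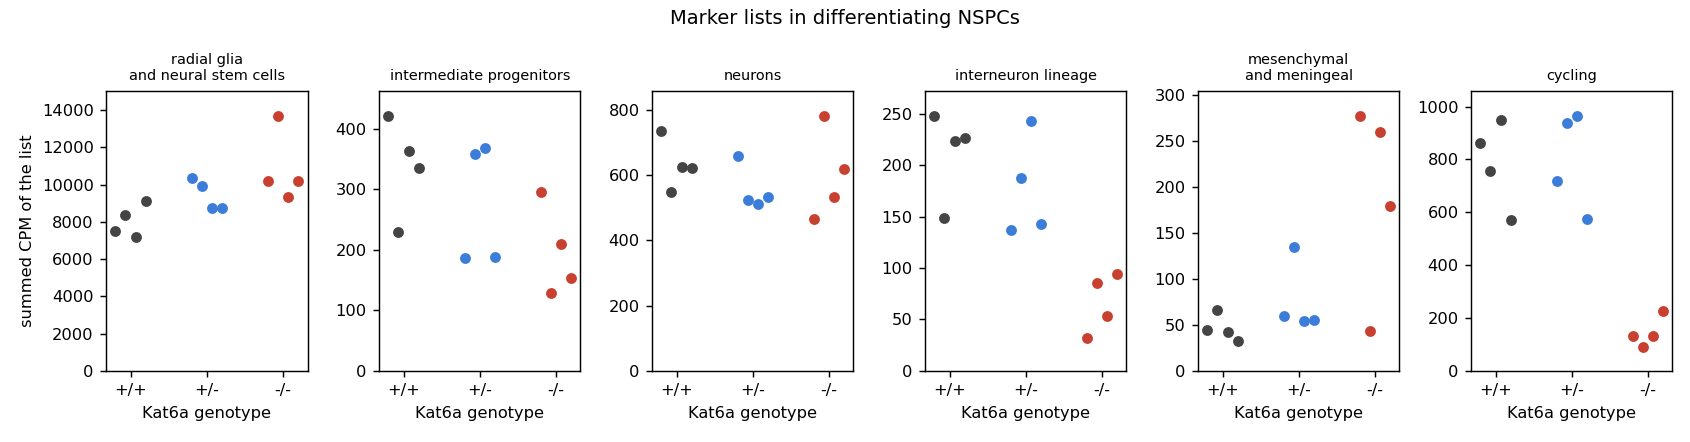
Summed CPM of 6 marker lists in each differentiating library (points, 4 per genotype); the vertical axes start at 0 and differ. Cycling markers lie at 89.2 to 227 CPM in Kat6a-/- and 571 to 950 CPM in Kat6a+/+ libraries, and the mesenchymal list is high in 3 of the 4 Kat6a-/- libraries.

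Marker genes of other cell states moved with the Notch genes in differentiating Kat6a-/- NSPCs, and their part in the Notch results was not tested. Among all genes tested in this comparison with Kat6a+/+ NSPCs, 54.4% were called, 26.7% higher and 27.7% lower. Cycling markers (Mki67, Top2a, Cdk1, Ccnb1, Mcm2, Pcna) fell in 6 of 6 and summed to 89.2 to 227 CPM against 571 to 950 CPM in Kat6a+/+ NSPCs. Interneuron lineage markers fell in 4 of 5 tested, from 149 to 248 down to 31.99 to 94.0 CPM summed. Intermediate progenitor markers fell in 4 of 5 tested and summed to 128 to 295 against 229 to 421 CPM, and the proneural genes Neurog1 and Neurog2 in this list were at 0 and at most 2.22 CPM in differentiating Kat6a+/+ NSPCs.

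The other lists in differentiating Kat6a-/- NSPCs gave 2 higher and 3 lower of 7 radial glia and neural stem cell markers, 1 higher and 4 lower of 7 tested neuronal markers, 1 higher and 2 lower of 7 astrocyte markers and 1 higher and 4 lower of 6 tested oligodendrocyte lineage markers. These counts stand beside 26.7% of all genes called higher and 27.7% lower. Summed, the radial glia and neural stem cell list was at 9307 to 13660 CPM in differentiating Kat6a-/- NSPCs, above the 7159 to 9122 CPM of all Kat6a+/+ libraries. Neuronal sums overlapped (466 to 780 against 547 to 734 CPM), as did oligodendrocyte lineage sums (698 to 1231 against 1201 to 1421 CPM). All 4 tested mesenchymal markers were higher. The 1 endothelial marker tested, Kdr, was lower, while Pecam1, Cdh5, Tie1 and Cldn5 were under 1 CPM in every library, and no microglial marker was tested. In proliferating Kat6a-/- NSPCs, 2 of 7 radial glia markers rose and 3 fell, 1 of 6 neuronal markers rose and 3 fell, 4 of 6 astrocyte markers rose, both tested interneuron lineage markers rose and 2 of 6 cycling markers fell. Of the tested markers, 1 of 3 intermediate progenitor, 1 of 6 oligodendrocyte lineage and the 1 tested microglial marker rose, and neither the 1 mesenchymal nor the 2 endothelial markers tested passed. The interneuron markers Dlx1, Dlx2, Dlx5 and Gad2 were under 1 CPM in every proliferating Kat6a-/- library. So were the intermediate progenitor markers Eomes, Neurog1 and Neurog2 and the microglial markers Cx3cr1, Csf1r, Aif1, Tmem119 and C1qa. Among all genes tested in proliferating Kat6a-/- vs. Kat6a+/+ NSPCs, 30.0% were called, 16.2% higher and 13.8% lower.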

How the data were processed

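Poly(A) RNA libraries (TruSeq Stranded mRNA) were sequenced on an Illumina NextSeq, and the authors aligned reads to mm39 with Rsubread and deposited featureCounts gene counts per library for a RefSeq annotation. Tool versions and the strand setting were not given in the sources used here, so reads of antisense or overlapping genes may not be separated. Groups came from the labels. Counts were used as deposited, for protein-coding genes (21030 of 26411, from RefSeq biotypes) without Xist and Y-unique genes, filtered on low counts by edgeR's filterByExpr, with library totals scaled by TMM. Proliferating libraries were fitted by limma-voom with litter as a random block (12276 genes), differentiating libraries by limma-trend with prior count 2 and quality weights (13339 genes), and all 24 libraries by limma-voom with litter as a random block (13590 genes). Tests were two-sided with robust moderation, p-values were adjusted by Benjamini and Hochberg over all genes tested, and the threshold was an FDR of 0.05. R 4.3.3, limma 3.58.1, edgeR 4.0.16 and DESeq2 1.42.0 were used, and the fits were tested on simulated data. Alternatives were edgeR, DESeq2, other scaling, no filter, other treatments of litter, weights and replicate number, and leaving out each library. The 10 genes, the lists of pathway and marker genes and the rule for named genes (the 4 largest called changes in each direction among other pathway genes with average log2 CPM above 0, and the 3 most correlated genes for each of the 10) were chosen with earlier results of these data known. Replicates were separate embryos, 6 of them used in both conditions by their labels. The litter of Kat6a+/+ replicate 2 is labelled 4346 in proliferating and 4364 in differentiating NSPCs, which may be 1 litter, and that reading was tried as an alternative chosen after seeing the data. No 2 replicates agreed within sampling noise (lowest chi-square per degree of freedom 5.55). Totals of 7826660 to 40838203 counts set the precision of low genes, and counting intervals cover counting error only. The values of 1 marker gene are not reported here.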

Additional observations from a re-analysis of the deposited data

Results flagged for a closer look

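Over 60 groups of 4 libraries (10 genes in 6 groups), 3 held a library far from the other 3 by Dixon's criterion, where chance gives about 1 in 20. Notch1 was at 393 CPM in proliferating Kat6a+/- replicate 2, with the next library at 355 CPM, and at 821 CPM in differentiating Kat6a+/- replicate 3, with the next at 597 CPM. Dll1 was at 46.0 CPM in proliferating Kat6a+/- replicate 4, with the next at 57.2 CPM. Of 10 interaction tests, 4 showed a Kat6a-/- effect that differed between conditions by limma, with estimates of -0.82 for Notch1 (FDR 0.00996), -1.85 for Dll1 (FDR 0.0148), -4.77 for Dll3 (FDR 0.00681) and -4.84 for Mfng (FDR 0.0141).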

How the results depend on the processing

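Leaving out 1 library at a time gave 1200 single-gene results, of which 1139 kept their side of the threshold. Of the others, 35 lost a call with the same sign, 23 gained a call and 3 reversed, that is, lost a call with the estimate on the other side of 0. Over 710 results in the other settings these numbers were 662, 33, 14 and 1. The number of the 10 genes called for Kat6a-/- vs. Kat6a+/+ in differentiating NSPCs was 5, all lower, with litter as a fixed term (13.4% of all genes called), without quality weights (23.2%) and with limma-voom and a litter block (21.0%). Kat6a-/- vs. Kat6a+/- in differentiating NSPCs gave 3 with litter as a fixed term (2.89% of all genes) and 2 with limma-voom (10.5%). The interaction gave 7 with quality weights (35.3%), and proliferating Kat6a+/- vs. Kat6a+/+ gave 1 (Dll1) with DESeq2 (0.228%). Without 1 library the counts ranged from 4 to 6 (Kat6a-/- vs. Kat6a+/+, proliferating), 4 to 9 (differentiating), 2 to 3 and 0 to 9 (Kat6a-/- vs. Kat6a+/-), 0 to 0 and 0 to 2 (Kat6a+/- vs. Kat6a+/+), 8 to 9 (condition) and 4 to 6 (interaction). Hes1 in differentiating Kat6a-/- vs. Kat6a+/+ NSPCs reversed to -0.0091 with limma-voom (FDR 0.989), -0.19 without Kat6a-/- replicate 1 (FDR 0.794) and -0.24 without replicate 3 (FDR 0.774), with values from -0.24 to 0.68 over the libraries left out. Jag1 against Kat6a+/- reversed to -0.21 without Kat6a-/- replicate 3 (FDR 0.938), with values from -0.21 to 2.16. The cause was not tested. Over all genes, calls in differentiating Kat6a-/- vs. Kat6a+/+ NSPCs numbered 7258, 3244 with edgeR, 4076 with DESeq2, 3097 without quality weights, 2806 with limma-voom, 1785 with litter as a fixed term, and 1212 and 939 without Kat6a-/- replicates 1 and 3. With library totals alone 2635 of 8304 calls were higher, beside 3562 of 7258, the median of all genes moved from -0.016 to -0.17, and the estimate of Notch2 became -0.03. Replicate numbers did not pair the libraries (correlations of same-numbered deviations from -0.47 to 0.48). With a replicate block the counts in the order of the ranges above were 6, 8, 2, 6, 0, 0, 9 and 5, the last adding Hes5 (-3.45, FDR 0.0387). Treating litters 4346 and 4364 as 1 litter, an alternative chosen after seeing the data, changed no call among the 10 genes. Weight estimation stopped early in 6 of 18 weighted fits of differentiating libraries, and not in the one reported. Depth limits Mfng, which had 2 to 4 reads in each differentiating Kat6a-/- library.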
